A study of Rattus norvegicus with 10 samples.

Results

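The families that steer growing axons, namely semaphorins, ephrins, netrins and Slits with their receptors, were followed in RNA from rat sensory axons of embryonic and adult animals. Members were found by gene symbol: every gene with a single symbol in the array's annotation that matched the name of one of these families was taken, which gave 58 of 14217 genes. Each gene was represented by 1 probe set (a group of probes for 1 transcript), the one with the highest mean over the 10 arrays. Of the 58 genes, 29 code for receptors and 27 for ligands. The other 2, Unc50 and Unc5cl, match the letters Unc5 of the name rule but are not known as netrin receptors. They were counted apart, which leaves 56 genes of guidance families. A further 13 family genes of the RefSeq gene table, namely Efna2, Efna3, Efnb2, Epha1, Ephb2, Ntn3, Ntn4, Plxnb3, Robo4, Sema4c, Sema5b, Sema7a and Unc5d, matched no probe set that names 1 gene and were not analysed here.

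The series held 5 arrays of axons from embryonic day 16 and 5 of axons from adult rats, whose age the labels leave out. Ganglia that hold the cell bodies of sensory neurons (dorsal root ganglia) were grown as explants in a compartmented chamber for 4 days in both groups, and axons more than 1 cm long were collected from the outer compartment. No treatment, genotype or strain is named for either group, and the labels call the 5 arrays of each stage biological replicates without saying whether material was pooled. Separate cultures are not named, so the p-values below measure only the spread between these arrays, which may be technical in part.

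Axon guidance works through cues that bind receptors on the growth cone, the moving tip of an axon, and change its cytoskeleton. Secreted class 3 semaphorins bind neuropilins, which signal through A-type plexins, whereas most membrane-bound semaphorins bind plexins directly. Ephrins on one cell bind Eph receptor kinases on another, netrin-1 attracts through Dcc and repels through Unc5 receptors, and Slits repel through Robo receptors. Sensory axons use several of these systems when they enter the spinal cord and the skin, and axons can carry mRNA for some guidance receptors.

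All levels are log2 values from RMA (robust multi-array average, a way of summarising Affymetrix probes), and a difference of 1 is a 2-fold change. Differences are adult minus embryonic. The values of different genes come from different probes and were not set against each other. A gene was called above background on an array when it exceeded the 95th percentile of 98 probe sets for 84 genes restricted to other tissues, such as liver, eye and testis. That level was 2.90 to 3.98 on the 10 arrays. RMA compresses differences close to it.

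The 2 stages were not alike in ways that touch every gene. The poly-A control transcripts that are added before labelling were at 2.26 ± 0.31 (SD, n = 5) on embryonic and 10.66 ± 1.70 on adult arrays (two-sided exact permutation p = 0.0079), and an effect of these controls' labelling step cannot be told apart from one of stage. The spread of values also differed, with a standard deviation per array from 1.49 to 2.07. Embryonic replicates 1 and 5 and adult replicates 4 and 5 formed the wide end of that range, with 6 narrower arrays. Of 24 genes of sensory neurons and axons, 18 were above background on all embryonic and 11 on all adult arrays, and 7 were lower in adult axons (limma, adjusted p under 0.05). Prph, the peripherin of peripheral neurons, was above background on all 10 arrays. It was also among the 7 called lower in adult axons (-4.32 ± 0.71 SE, limma adjusted p = 0.020). Nuclear factors of sensory neurons, a sign of cell bodies, passed on all arrays of a stage for 2 of 11 genes in each stage. Over all genes 29.2% passed on all embryonic and 23.4% on all adult arrays. Isl1 passed on all 10 arrays, and 3 of the 11 factors were above background on no array. Of 26 markers of macrophages and leucocytes, 13 were called higher in adult axons (limma, adjusted p under 0.05) and 0 lower. An unadjusted p under 0.05 was found for 20, and the median difference over the list was 3.61. Their summed level on the linear scale was 458 to 3007 on embryonic and 7586 to 18656 on adult arrays. The summed levels of Schwann cell markers were 438 to 1060 and 766 to 5391, of satellite glia 332 to 2435 and 702 to 3204, of fibroblasts 486 to 2321 and 1505 to 6553, and of endothelial cells 136 to 190 and 169 to 312. Among these 4 lists of other cells 1 gene was called, the fibroblast and leucocyte gene S100a4, higher in adult axons (2.64 ± 0.49 SE, adjusted p = 0.038). Pecam1 and Flt1 of endothelium, Fap of fibroblasts and Kcnj10 of satellite glia were above background on no array. That held for 2 of 14 endothelial, 2 of 18 fibroblast, 2 of 7 satellite glia and 1 of 17 Schwann cell genes. In that order, 2, 5, 3 and 6 genes passed on all embryonic arrays, and 3, 2, 2 and 5 on all adult arrays. In bulk RNA, fewer cells or axons of a kind and less RNA in each cannot be told apart.

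The question was whether axonal mRNAs of guidance cues and receptors differ between the embryonic and the adult stage. No member passed the test: 0 of 58 genes had an adjusted p under 0.05 by limma (Benjamini-Hochberg over 31042 probe sets), where 1.26% of all 14217 genes did. The lowest adjusted p among them was 0.31. At an unadjusted p under 0.05 there were 4 members (Plxna2, Sema4a, Nrp1 and Plxna3), 6.90% of them, against 13.3% of all genes. The values of the stages overlapped for each of the 58, whereas they were separate for 3.54% of all genes. Mean values were higher in adult axons for 24 members and lower for 34, and the median difference was -0.05 over the members and -0.001 over all genes.

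**Figure D1:**
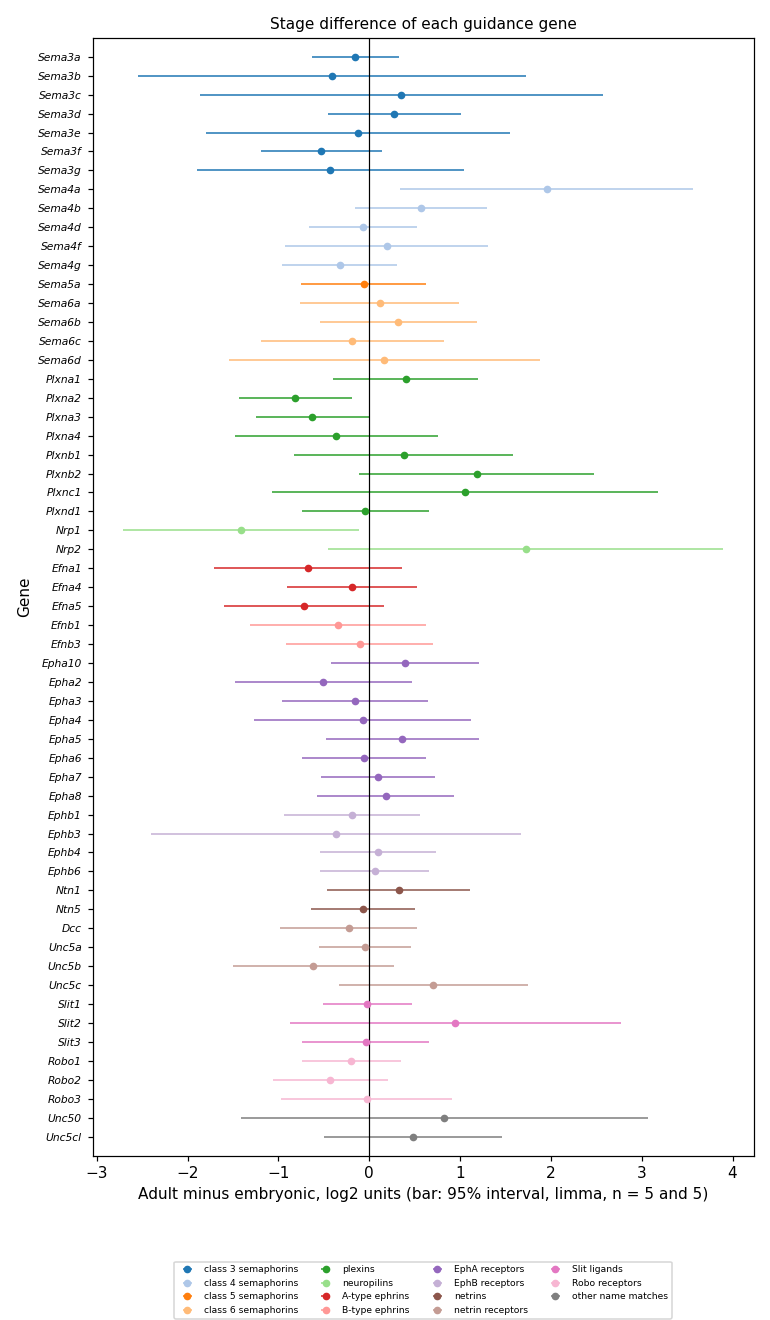
Difference between adult and embryonic axons for each of the 58 genes (horizontal axis, log2 units; points are means, bars the 95% interval from limma, n = 5 arrays per stage), coloured by class. Only Plxna2, Plxna3, Sema4a and Nrp1 have an interval that leaves out 0, none of them after adjustment, and the differences run from -1.41 for Nrp1 to 1.95 for Sema4a.

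The width of the intervals shows what could have been missed. The 95% interval reached 0.48 to 2.24 log2 units to each side of the estimate, with a median of 0.83. It lay within 1 unit of 0, so that a change of more than 2-fold was outside it, for 22 of the 58 members (37.9%, against 25.5% of all genes), and 16 of those 22 were above background on no array. A narrow interval of such a gene says little about its RNA, because neither stage was measured above background.

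Guidance genes were often below background. On single arrays 12 to 28 of the 58 exceeded it. Over the 5 embryonic arrays 38.6% of the members' values were above background, against 52.2% of the values of all genes, and over the 5 adult arrays 34.8% against 51.6%. Above background on every array of a stage were 5 members in embryonic axons (8.62%, against 29.2% of all genes) and 6 in adult axons (10.3%, against 23.4%). These were Epha2, Plxna2, Plxna3, Plxnb2 and Sema6c in the embryo and Plxna1, Plxnb1, Plxnb2, Sema4a, Sema6b and Sema6c in the adult, 9 genes in all. Without embryonic replicate 3 the embryonic count was 10, and without adult replicate 3 the adult count was 11, in both cases with 1 array fewer to pass. On no array above background were 18 members (31.0%, against 18.9% of all genes): Sema3a, Sema3d, Sema4d, Sema5a, Efna4, Epha5, Epha6, Epha7, Epha8, Ephb4, Ephb6, Ntn5, Dcc, Unc5a, Slit1, Slit3, Robo1 and Robo3. Besides the 9 genes above, 12 are given in more detail because they lay more than 2 log2 units above background on at least 1 array, a choice made after their values were seen: Sema3b, Sema3c, Sema3e, Sema3g, Sema4b, Sema6d, Ephb3, Nrp1, Nrp2, Plxnc1, Slit2 and Unc50.

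**Figure D2:**
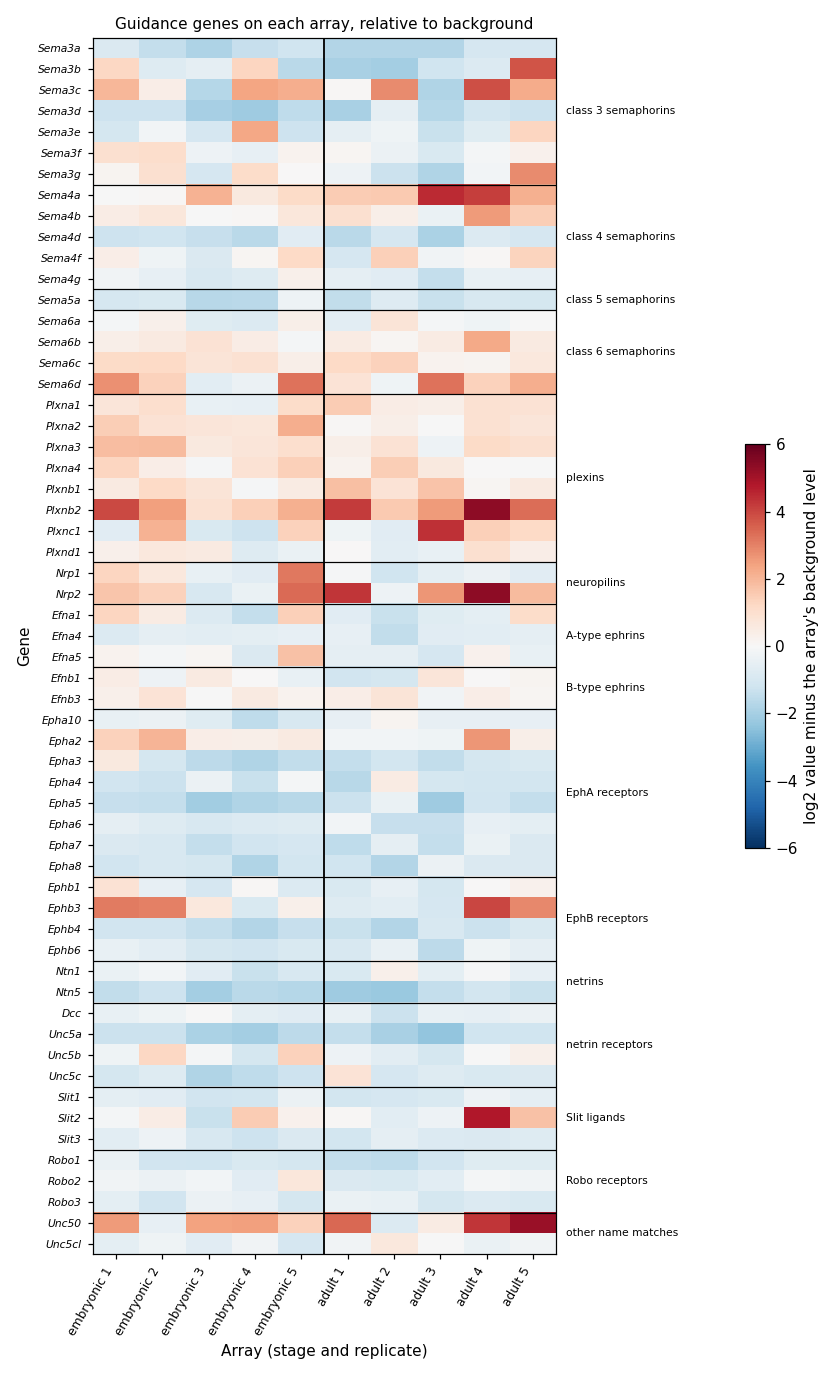
Each of the 58 genes (rows, grouped by class) on each of the 10 arrays (columns), as the log2 value minus the background level of that array. Red is above and blue below background. Plexins are red across most arrays of both stages, EphA receptors, netrins, netrin receptors and Robo receptors are mostly blue, and genes such as Sema3b, Slit2 and Ephb3 are dark red on some arrays of a stage and blue on others.

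Plexins were the receptors most often measured. They are the transmembrane receptors of semaphorins and act on small GTPases of the cytoskeleton. All 8 plexins were above background on at least 1 array, and of their 40 values per stage 31 were above it in embryonic and 33 in adult axons. The class had 0 called genes and 2 at an unadjusted p under 0.05, with 4 differences above and 4 below 0.

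Among the A-type plexins, the partners of neuropilins, Plxna2 was at 4.61, 4.22, 4.67, 4.65 and 5.58 on embryonic replicates 1 to 5 and at 3.98, 4.31, 3.95, 3.79 and 3.63 on adult replicates 1 to 5. Only adult replicate 2 reached into the embryonic range. The difference was -0.81 ± 0.28 (SE; 95% interval -1.44 to -0.19; limma adjusted p = 0.31). The 4 wide arrays alone gave -1.38 and the 6 narrower ones -0.43. The other probe sets of Plxna2 differed by -0.09 and -0.20, and each was above background on 4 or fewer arrays.

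Plxna3 stood at 5.01, 5.23, 4.55, 4.69 and 4.37 on embryonic arrays and at 4.26, 4.83, 3.69, 4.06 and 3.88 on adult arrays, a difference of -0.63 ± 0.28 (SE; adjusted p = 0.50). Here too a single adult array, replicate 2, lay inside the embryonic range. Its second probe set read 4.24, 5.30, 3.73, 3.90 and 4.72 in embryonic and 3.14, 3.58, 2.72, 3.06 and 2.83 in adult axons. This was the only one of the 39 other probe sets of the members whose stages did not overlap, at -1.31 ± 0.33 (SE; adjusted p = 0.12), and it was above background on 3 embryonic and 1 adult array. Both probe sets of Plxna3 thus had lower adult means, and neither passed the test.

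Plxna1 was at 3.95 ± 0.46 (SD, n = 5) in the embryo and 4.35 ± 0.66 in the adult (difference 0.40 ± 0.36 SE, adjusted p = 0.84), and exceeded background on 3 embryonic and 5 adult arrays. Of its other probe sets, 1 differed by -0.22 and was above background on no array. Another differed by 0.19 and was above it on 1 adult array. Plxna4 passed background on 4 arrays of each stage and had an adjusted p of 0.93. The 4 A-type plexins together were above background in 17 of 20 values in either stage.

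B-type plexins bind class 4 semaphorins. Plxnb2 was above background on all 10 arrays, at 7.12, 5.80, 4.89, 5.42 and 5.51 on embryonic arrays and 8.07, 5.56, 6.53, 8.24 and 6.25 on adult arrays. Adult replicates 1 and 4 were above all embryonic arrays, while the other 3 lay within the embryonic range. The difference was 1.18 ± 0.58 (SE; 95% interval -0.11 to 2.47; adjusted p = 0.57). Plxnb1 was at 4.15 ± 0.45 (SD) in the embryo and 4.53 ± 1.25 in the adult (0.38 ± 0.54 SE, adjusted p = 0.93), and its 3 probe sets did not share a direction. The other 2 differed by -1.24 (adjusted p = 0.50) and -0.59 (adjusted p = 0.52).

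Plxnc1, the receptor of Sema7a and known from leucocytes as well as neurons, was above background on 5 of 10 arrays and reached 8.36 on adult replicate 3. Its other adult values were 3.66, 3.28, 4.33 and 4.11, and its embryonic values 2.48, 5.45, 3.05, 2.72 and 4.76. The difference of 1.06 ± 0.96 (SE; adjusted p = 0.84) was 0.15 without adult replicate 3. Plxnd1, best known from blood vessels, passed background on 3 arrays of each stage and differed by -0.04.

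**Figure D3:**
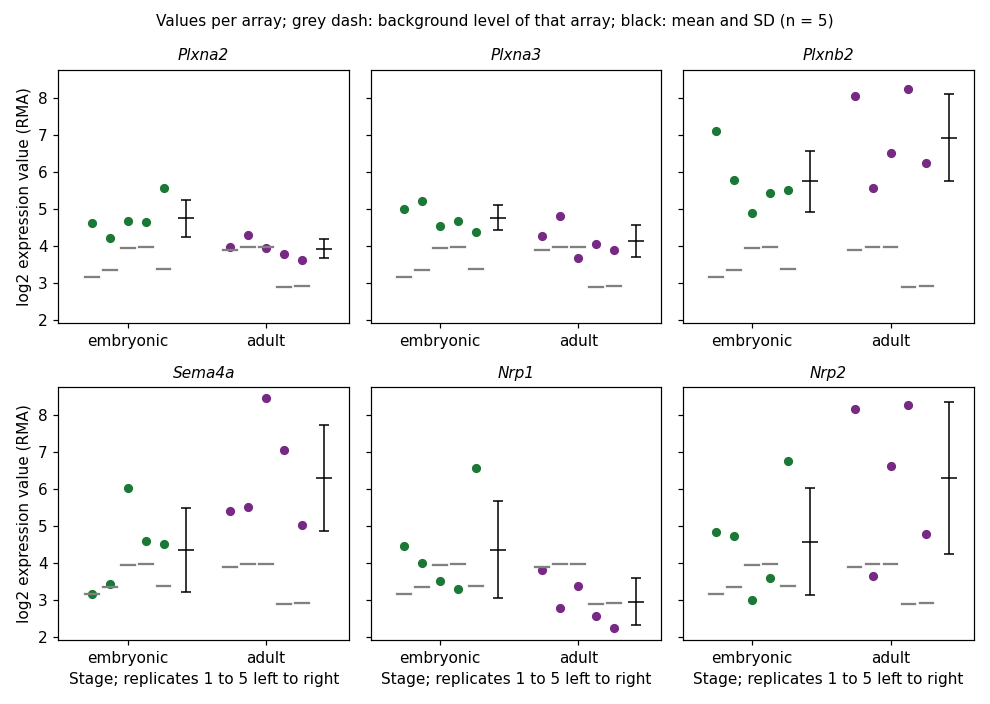
Log2 values (vertical axis) of 6 semaphorin-system genes on each array, by stage, with replicates 1 to 5 from left to right. Grey dashes are the background level of that array, and black marks the mean and SD (n = 5). The stages overlap in every panel, and the 5 adult values of Nrp2 span 3.66 to 8.28.

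The neuropilins, co-receptors that bind secreted semaphorins, had differences of opposite sign. Nrp1, the co-receptor of Sema3a, was at 4.46, 4.00, 3.52, 3.29 and 6.56 on embryonic arrays and 3.81, 2.78, 3.39, 2.56 and 2.23 on adult arrays. It was above background on embryonic replicates 1, 2 and 5 and on no adult array. The difference was -1.41 ± 0.59 (SE; 95% interval -2.72 to -0.11; adjusted p = 0.44). It was -0.86 without embryonic replicate 5. The wide arrays alone gave -3.12 and the narrower ones -0.28. With adult values below background set to that level the difference was -0.84. A second probe set gave -1.28 ± 0.70 (SE; adjusted p = 0.63) and was above background on embryonic replicates 1, 2 and 5 as well, and on 1 adult array.

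Nrp2, which favours Sema3f, read 4.83, 4.72, 2.99, 3.59 and 6.76 on embryonic arrays and 8.19, 3.66, 6.62, 8.28 and 4.79 on adult arrays. Adult replicates 1 and 4 were above every embryonic array and adult replicate 2 was below background. The difference of 1.73 ± 0.99 (SE; 95% interval -0.45 to 3.90; adjusted p = 0.66) was smaller than the range within the adult stage. By spread, it was 0.74 on the wide and 2.39 on the narrower arrays. The mean of its probe sets differed by 1.00, and the other probe set of Nrp2 was above background on no array. Whether the 2 neuropilins differ from each other in their stage change was not tested.

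Macrophages and other leucocytes also express Nrp2, Plxnb2, Plxnc1 and Sema4a. These are the members with the largest differences above 0 (1.73, 1.18, 1.06 and 1.95), so their choice was not independent of the stage difference. The other class 4 semaphorins, a class also known from immune cells, went both ways. Sema4b and Sema4f differed by 0.57 and 0.19, and Sema4d and Sema4g by -0.07 and -0.33. Sema4d was above background on no array. On adult replicates 1 to 5 the summed level of macrophage and leucocyte markers was 17867, 9510, 15694, 18656 and 7586, with replicates 1, 3 and 4 highest. Nrp2 and Plxnb2 were highest on those 3 arrays too. Sema4a and Plxnc1 were highest on replicates 3 and 4, and for both a single adult array was lower than replicate 1. Among the embryonic arrays the marker sum was highest on replicate 1, at 3007, where Plxnb2 had its highest embryonic value and Sema4a and Plxnc1 their lowest. Nrp2 had its highest embryonic value on replicate 5, where the sum was 458. The part of these cells in the values was not tested.

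The semaphorins were measured as 17 ligands, of which 13 were above background on at least 1 array, and 0 were called. Class 3 semaphorins are secreted and mostly repel axons. Of these 7 genes 0 were above background on all arrays of a stage, and 14 of 35 embryonic and 9 of 35 adult values exceeded it. Sema3a, the cue that collapses growth cones of sensory axons, was at 2.23 ± 0.26 (SD) in the embryo and 2.07 ± 0.17 in the adult, below background on all 10 arrays.

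Among the other class 3 members, the values of Sema3b, Sema3c, Sema3e and Sema3g varied widely within a stage. Sema3c was at 5.16, 3.75, 2.23, 6.36 and 5.57 on embryonic arrays and 3.96, 6.80, 2.16, 6.77 and 5.15 on adult arrays, so that in both stages replicate 3 was below background and the other 4 arrays were above it. Its stage difference was 0.35 ± 1.00 (SE; adjusted p = 0.97). Sema3b reached 6.66 on adult replicate 5 and stayed between 1.93 and 2.78 on the other adult arrays, and its embryonic values ran from 1.78 to 5.27. Sema3g was highest on the same adult array, at 5.75, with the other 4 between 2.17 and 3.58. Sema3e stood at 6.30 on embryonic replicate 4 and between 2.10 and 3.21 on the other embryonic arrays, and reached at most 4.20 on adult arrays. For Sema3b, Sema3e and Sema3g the stage differences were -0.41, -0.12 and -0.43, each smaller than its standard error. Sema3f, the only other class 3 member above background on any array, had 5 such arrays and a difference of -0.53 ± 0.30 (SE; adjusted p = 0.66).

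Class 4 semaphorins are membrane proteins of neurons and immune cells. Sema4a, which acts on T cells and other immune cells, had the largest difference above 0 of all 58 genes. It was at 3.15, 3.44, 6.03, 4.59 and 4.53 on embryonic arrays and at 5.42, 5.53, 8.46, 7.05 and 5.03 on adult arrays. Embryonic replicate 3 was above adult replicates 1, 2 and 5, and the stages were otherwise apart. The difference was 1.95 ± 0.73 (SE; 95% interval 0.34 to 3.56; adjusted p = 0.36). By spread, the wide arrays gave 2.20 and the narrower ones 1.79. Sema4b was at 3.94 ± 0.19 (SD) and 4.51 ± 0.69 (0.57 ± 0.33 SE, adjusted p = 0.66), with adult replicate 4 highest at 5.43. Sema4d, Sema4f and Sema4g differed by -0.07, 0.19 and -0.33. Sema5a, the only class 5 gene, stayed below background on all 10 arrays.

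Class 6 semaphorins are transmembrane ligands of A-type plexins and were above background in 14 of 20 embryonic and 15 of 20 adult values. Sema6c passed on all 10 arrays by its chosen probe set, at 4.43 ± 0.45 (SD) in embryonic and 4.24 ± 0.99 in adult axons (-0.18 ± 0.46 SE, adjusted p = 0.97). The other probe sets of Sema6c were above background on no array and differed by -0.10 and 0.22. Sema6b was at 3.98 ± 0.64 and 4.30 ± 0.63 (0.32 ± 0.39 SE, adjusted p = 0.91). Sema6d varied most within stages, from 3.35 to 6.62 in embryonic and from 3.73 to 7.22 in adult axons, with means of 4.85 and 5.01. Its highest values were on embryonic replicates 1 and 5 and on adult replicate 3. Sema6a differed by 0.11 ± 0.40 (SE).

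Eph receptors were mostly below background. Of 12 receptors, 6 were above it on no array, and 12 of 60 embryonic and 8 of 60 adult values exceeded it. Epha2 was the only one to pass on all arrays of a stage. It read 4.56, 5.39, 4.33, 4.35 and 3.93 on embryonic arrays and 3.71, 3.81, 3.69, 5.56 and 3.25 on adult arrays. Adult replicate 4 was the highest of the 10 arrays and the other adult arrays were below every embryonic one. The difference was -0.51 ± 0.44 (SE; adjusted p = 0.83), and -0.89 without adult replicate 4 (adjusted p = 0.38).

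Ephb3 split each stage: embryonic replicates 1, 2 and 3 were at 6.29, 6.37 and 4.60 and replicates 4 and 5 at 3.05 and 3.67, while adult replicates 4 and 5 were at 6.90 and 5.81 and replicates 1 to 3 at 3.13, 3.34 and 2.97. The stage difference was -0.37 ± 0.92 (SE; adjusted p = 0.97). Epha4, a receptor for both ephrin types, was above background on 1 adult array by its chosen probe set. By 2 of its other 3 probe sets it was at 7.14 and 6.07 on embryonic replicate 1 and at 2.81 or below on the other 9 arrays. The remaining EphA receptors had differences from -0.16 (Epha3) to 0.40 (Epha10), and the other EphB receptors from -0.19 (Ephb1) to 0.09 (Ephb4).

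All 5 ephrins measured had lower adult means by the chosen probe set, and 0 were called, with 95% intervals that included 0. The A-type ephrins, anchored to the membrane by a lipid, were above background in 6 of 15 embryonic and 2 of 15 adult values. Efna5 was at 3.79 ± 0.84 (SD) and 3.07 ± 0.38 (-0.72 ± 0.40 SE, adjusted p = 0.64), and Efna1 at 3.75 ± 0.92 and 3.08 ± 0.65 (-0.67 ± 0.47 SE, adjusted p = 0.76). The second probe set of Efna1 differed by -0.78 (adjusted p = 0.49) and that of Efna5 by 0.26 (adjusted p = 0.89), both below background on all arrays. That of Efnb1, also below background throughout, differed by 0.10. The transmembrane ephrins Efnb1 and Efnb3 were above background in 7 of 10 values in either stage and differed by -0.34 and -0.10.

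**Figure D4:**
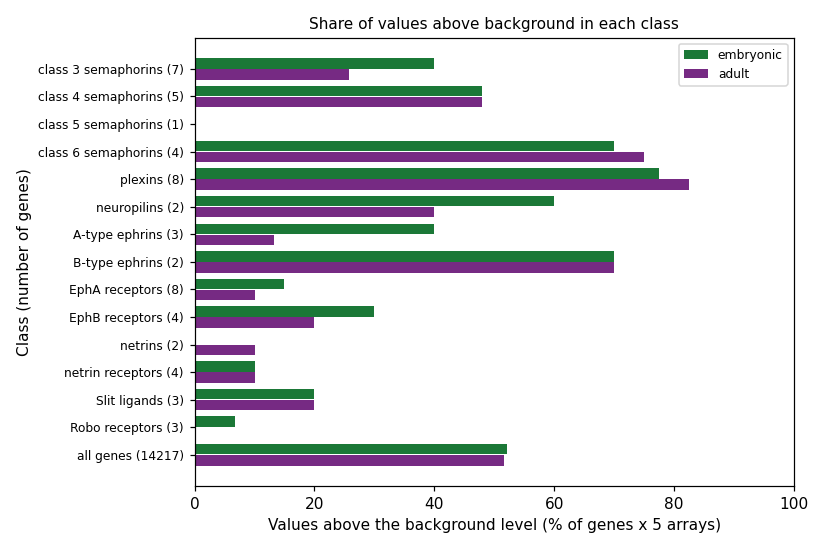
Share of values above background (horizontal axis, percent of genes times 5 arrays) for each class in embryonic and adult axons, with the number of genes in brackets. Plexins reach 77.5% and 82.5% against 52.2% and 51.6% of all genes, and the 3 Robo receptors reach 6.67% and 0%.

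Netrins and their receptors were close to undetected. Ntn1, the classical attractant of the spinal cord midline, was above background on adult replicate 2 by its chosen probe set and on adult replicate 5 by another, and Ntn5 on no array. Dcc, the attractive netrin receptor, stayed below background on all 10 arrays at 3.16 ± 0.53 (SD) and 2.94 ± 0.53. The Unc5 receptors mediate repulsion. Unc5b was at 2.89, 4.59, 3.86, 2.92 and 4.75 on embryonic arrays, of which replicates 2 and 5 were above background, and between 2.88 and 3.59 on adult arrays, of which replicate 5 was above it. Its difference was -0.61 ± 0.40 (SE; adjusted p = 0.73). Unc5c passed on adult replicate 1 alone and differed by 0.71 ± 0.47 (SE; adjusted p = 0.74), and Unc5a on no array. The second probe sets of Unc5b and Unc5c were above background on no array and differed by -0.04 and -0.11. Of the 2 genes that match the name rule but are not known as netrin receptors, Unc50 differed by 0.83 ± 1.02 (SE; adjusted p = 0.91) and Unc5cl by 0.48 ± 0.44 (SE; adjusted p = 0.85).

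Slit2, a secreted repellent that also makes sensory axons branch, was the only Slit above background. It was at 3.01, 3.78, 2.64, 5.50 and 3.66 on embryonic arrays and 3.98, 3.31, 3.69, 7.70 and 4.66 on adult arrays. The difference of 0.95 ± 0.82 (SE; adjusted p = 0.83) was 0.19 without adult replicate 4. The other probe sets of Slit2 were above background on no array and differed by 0.11 and -0.03. The summed level of fibroblast markers was also highest on that adult array, at 6553, and among embryonic arrays on replicate 4, at 2321, where Slit2 had its highest embryonic value. Other sums peaked on these arrays too. The macrophage and satellite glia sums were highest on adult replicate 4, at 18656 and 3204. The Schwann cell and endothelial sums were highest among embryonic arrays on replicate 4, at 1060 and 190. The part of these cells in the values was not tested.

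Of the Robo receptors, which bind Slits, Robo1 and Robo3 were above background on no array and Robo2 on embryonic replicate 5. A second probe set of Robo2 was at 5.29, 4.00, 1.95, 2.05 and 5.39 on embryonic arrays and between 1.63 and 2.35 on adult arrays. It lay above background on embryonic replicates 1, 2 and 5 and on no adult array, with a difference of -1.71 ± 0.69 (SE; adjusted p = 0.41). With the adult values raised to the background level the difference was -0.21. These are the 3 embryonic arrays on which both probe sets of Nrp1 passed. They were also the embryonic arrays with the lowest background level, 3.15 to 3.38 against 3.96 and 3.98, and with the most genes above it, 8044 to 8943 against 5889 and 6029, and the part of that in the values was not tested.

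Of the 58 genes, 24 had more than 1 probe set, with 39 besides those chosen. Of these 39, 0 were called by limma, 4 had an unadjusted p under 0.05 (in Efna1, Plxna3, Plxnb1 and Robo2, all lower in adult axons), 22 were above background on no array, and 24 had the sign of the chosen probe set. With each gene represented by its probe set of smallest p, 0 members were called and 7 had an unadjusted p under 0.05.

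Genes that work with these families but fall outside the name rule were read from 2 lists. The first held other cues and receptors, such as Neo1, Rgma, Cxcr4, L1cam and Nrcam. Of 46 measured genes 0 were called by limma and 5 had an unadjusted p under 0.05, with a median difference of -0.08. Lingo1, which takes part in the response to myelin inhibitors, was the only one whose stages did not overlap, 2.17% of the list against 3.54% of all genes, and was named after its values were seen. It was at 5.33 ± 1.17 (SD) in the embryo and at 3.00 ± 0.63 in the adult, where it was above background on no array (adjusted p = 0.091).

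The second list held signalling proteins downstream of the receptors, such as kinases and collapsin response mediator proteins. Of 78 genes 2 were called lower in adult axons and 0 higher, where 0.647% of all genes were called lower and 0.612% higher. An unadjusted p under 0.05 was found for 17, or 21.8%, against 13.3% of all genes. These went both ways: Rac1, Rhoa, Pak2, Vasp, Adam17 and Arf6 were higher in adult axons and the rest of the 17 lower. Crmp1, which relays semaphorin signals to microtubules, went from 7.49 ± 0.95 (SD) to 3.73 ± 0.80 (-3.76 ± 0.51 SE; adjusted p = 0.0074). Rac3 went from 6.61 ± 0.51 to 4.27 ± 0.83 (-2.34 ± 0.42 SE; adjusted p = 0.030). The call of Rac3 was lost without embryonic replicate 1, 3 or 5 or adult replicate 1, 2 or 4 (adjusted p = 0.053 to 0.083), with a trended and robust variance (0.093), with the replicate block (0.097) and on the narrower arrays (0.100). Crmp1 kept its call in all of these. On the 4 wide arrays, where limma called 0 of all genes, Crmp1 differed by -3.95 and Rac3 by -1.76. Dpysl3, a relative of Crmp1 named after its values were seen, had separate stages and an adjusted p of 0.052. Stages were separate for 3.85% of the list, close to the 3.54% of all genes. The summed level of sensory neuron and axon markers was 10093 to 31721 on embryonic and 2205 to 9599 on adult arrays, and its part in these values was not tested.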

How the data were processed

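RNA of 10 samples was measured on Affymetrix rat expression arrays. The authors deposited log2 values summarised with RMA, per the submitters' processing notes; base 2 was inferred from their range, and neither version nor options are given in the sources used here. Array medians were 2.85 to 3.14; the number of arrays limits the precision. Of 31099 probe sets 57 were controls, 20826 had 1 symbol, 436 several and 9780 none in the platform annotation. All 58 members were found in the RefSeq gene table, with 0 changed symbols.

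Adult minus embryonic differences came from limma 3.58.1 under R 4.3.3 (moderated test, two-sided, after lmFit) on the 31042 probe sets besides the controls, without a filter or pseudocount, and checked on simulated data. Figures used Python 3.11.15, pandas 2.3.3 and matplotlib 3.10.9. Members and lists were chosen with earlier results of these data known. Members in full were those called, with separate stages, or above background on all arrays of a stage, plus the 12 chosen later; for the lists, called genes. Alternatives covered scaling, variance model, array weights, blocks, filter, probe set choice, background level and each omitted array.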

Additional observations from a re-analysis of the deposited data

Results flagged for a closer look

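Of 42 groups of 5 arrays checked (21 genes in 2 stages), 4 held an array that stood apart from the other 4 by Dixon's criterion. Chance meets it in about 1 of 20 groups, but that rate does not apply here, because 12 of the 21 genes, among them Sema3b, Sema3e and Plxnc1, were included for a high value on at least 1 array. Sema3b was at 6.66 on adult replicate 5, with the next adult value at 2.78. Sema3e was at 6.30 on embryonic replicate 4, with the next at 3.21. Epha2 was at 5.56 on adult replicate 4, with the next at 3.81. Plxnc1 was at 8.36 on adult replicate 3, with the next at 4.33. Each of these arrays was a different one.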

How the results depend on the processing

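No member was called by limma in any refit, where 1 to 7 had an unadjusted p under 0.05 and the lowest adjusted p was 0.093 (Sema4a with the replicate block). The refit on arrays of wide spread called 0 of all genes, so its count says nothing about the members. The filter on weak probe sets kept only 24 members. Stages did not overlap for 1 member with median scaling (Plxna2), 1 with the mean of all probe sets (Efna1) and 0 to 2 when 1 array was left out (Plxna2, Plxna3, Sema4a, Sema4b or Epha2). Above background on all arrays were 11 embryonic members at the 90th percentile, 3 embryonic and 2 adult at the 99th, and 15 in each stage when 4 of 5 arrays sufficed; leaving out 1 array gave 5 to 10 and 6 to 11. Pathway partners called, 2 as reported, numbered 6 with quantile normalization, the spread block or the filter on weak probe sets, 4 with cyclic loess or array weights, 1 with the replicate block, 0 within arrays of wide spread (where 0 of all genes were called, so that this count says nothing about the partners), and 1 to 6 when 1 array was left out (1 without embryonic replicate 1, 3 or 5 or adult replicate 1 or 4, and 6 without embryonic replicate 4). The cause was not tested. Replicate numbers did not pair the arrays: correlations of same-numbered arrays were -0.10 to 0.25 and 3 of 10 arrays correlated best with their own number.

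Of 480 values of 21 genes under alternatives, 449 kept their direction and side of the threshold and 31 turned sign, 18 of them outside single-array omissions. The trended and robust variance, the blocks and the filter repeat the main estimate, so the direction could not turn there. The same holds for the choice of probe set in genes with only 1. The 449 therefore overstate how stable the directions were. Within arrays of wide spread the sign turned for Epha2 (0.16), Ephb3 (1.37), Plxna1 (-0.38), Plxnb1 (-0.54), Sema3b (1.28), Sema3e (1.07), Sema3g (0.90) and Sema6d (-1.57), and within narrower arrays for Sema6b (-0.072), Sema6c (0.17), Slit2 (-0.31) and Unc50 (-0.22). Array weights turned Sema3e (0.13) and Sema6d (-0.10), quantile normalization Sema6c (0.02), the mean of probe sets Plxnb1 (-0.48), and the probe set of smallest p Plxnb1 (-1.24) and Sema6c (0.22). Leaving out 1 array gave -0.98 to 0.027 for Ephb3, -1.31 to 0.038 for Sema3b, -0.24 to 1.05 for Sema3c, -0.43 to 0.62 for Sema3e, -0.46 to 0.11 for Sema6c and -0.39 to 0.61 for Sema6d. Another scaling moved the median of all genes by at most 0.04.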
